A study of Drosophila melanogaster with 40 samples.

Results

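Cycloheximide-treated *smaug*-mutant polysome gradients were set against the gradients of *smaug*-mutant lysate that had no such incubation, called untreated here. The arrays were chosen by the sample labels, as pools 1, 3 and 4 of the 2 cycloheximide and the 3 untreated gradients. These are 15 of 40 arrays, 6 with cycloheximide and 9 untreated, and 5 of 10 gradients, and each array gave 6524 transcripts. Pool 2 of the same gradients was used for its levels alone. The other gradients came from wild-type embryos and from lysate given puromycin, and they serve here as side values.

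All embryos in the comparison were collected 0 to 2 h after egg laying from mothers homozygous for the *smaug*1 allele. For the cycloheximide gradients, embryos were lysed in a puromycin buffer with less magnesium, with potassium and GTP and without heparin. Cycloheximide was then added, and the lysate was incubated first on ice and then warm before it was diluted into the standard polysome buffer. Puromycin was given to another portion of those lysates. The untreated gradients were lysed directly in the standard polysome buffer, which itself contained cycloheximide. The groups therefore differed in lysis buffer, in the incubation and in when the drug was met, not in whether it was met, and these differences cannot be told apart. The *smg* transcript was not among the rows with a gene name, so the genotype was not checked in the data.

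A sucrose gradient sorts mRNAs by the number of ribosomes they carry. Free mRNA and small ribonucleoproteins stay near the top, and mRNAs with many ribosomes sediment deep. Cycloheximide blocks the translocation step of elongation and holds ribosomes on the mRNA, which is why polysome buffers usually contain it. Puromycin instead ends the nascent chain and lets translating ribosomes fall off. Smaug binds stem-loops in maternal mRNAs of the early embryo, represses their translation and recruits the CCR4/NOT deadenylase.

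Pool 1 was the top of each gradient, and pools 3 and 4 held mRNA bound by several ribosomes, with pool 4 the deeper. The translation index (TI) of a transcript was the mean of its log2 levels in pools 3 and 4 minus its log2 level in pool 1, so a TI higher by 1 means that the ratio of polysomal to free mRNA doubled. Each array used 1 channel, Cy5 for cycloheximide replicate 1 and untreated replicate 1 and Cy3 for cycloheximide replicate 2 and untreated replicates 2 and 3, and the number of arrays limits the precision.

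Some libraries stood apart. Across transcripts, which are not independent replicates, the cycloheximide gradients had a Spearman correlation of 0.97 in pool 4, 0.96 in pool 3 and 0.94 in pool 2, but 0.71 in pool 1. Pool 1 of cycloheximide replicate 2 also correlated at 0.54, 0.75 and 0.40 with pool 1 of untreated replicates 1, 2 and 3. In untreated replicate 2 the ratio of pool 4 to pool 3 had an interquartile range of 1.75 over transcripts, against 0.96 and 0.97 in the cycloheximide gradients and 0.52 and 0.76 in the other untreated gradients. Changes in TI of single genes are therefore also given without 1 gradient at a time where this moved them most.

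The first comparison asked whether the index as a whole was lower or higher after cycloheximide. The median TI was 0.52 and -0.64 with cycloheximide, against -0.47, -0.19 and 1.77 untreated. The groups overlapped, and untreated replicate 3 was the highest gradient by a wide margin. The means were -0.06 ± 0.82 (SD, n = 2) with cycloheximide and 0.37 ± 1.22 (SD, n = 3) untreated, a difference of -0.43. An exact permutation test (two-sided) gave p = 0.80, and the smallest p of its 10 arrangements is 0.20. Within the Cy5 gradients the difference was 0.99 (1 against 1), and within the Cy3 gradients it was -1.43 (1 against 2), so its sign differed between the dyes. It was 0.27 without untreated replicate 3 and 0.15 without cycloheximide replicate 2. The interquartile range of the TI over transcripts was 1.97 and 1.57 with cycloheximide, against 1.91, 1.95 and 2.64 untreated, and these groups also overlapped (difference -0.40, exact permutation p = 0.60). Leaving out 1 gradient gave differences from -0.60, without cycloheximide replicate 1, to -0.16, without untreated replicate 3, with -0.20 without cycloheximide replicate 2.

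**Figure D1:**
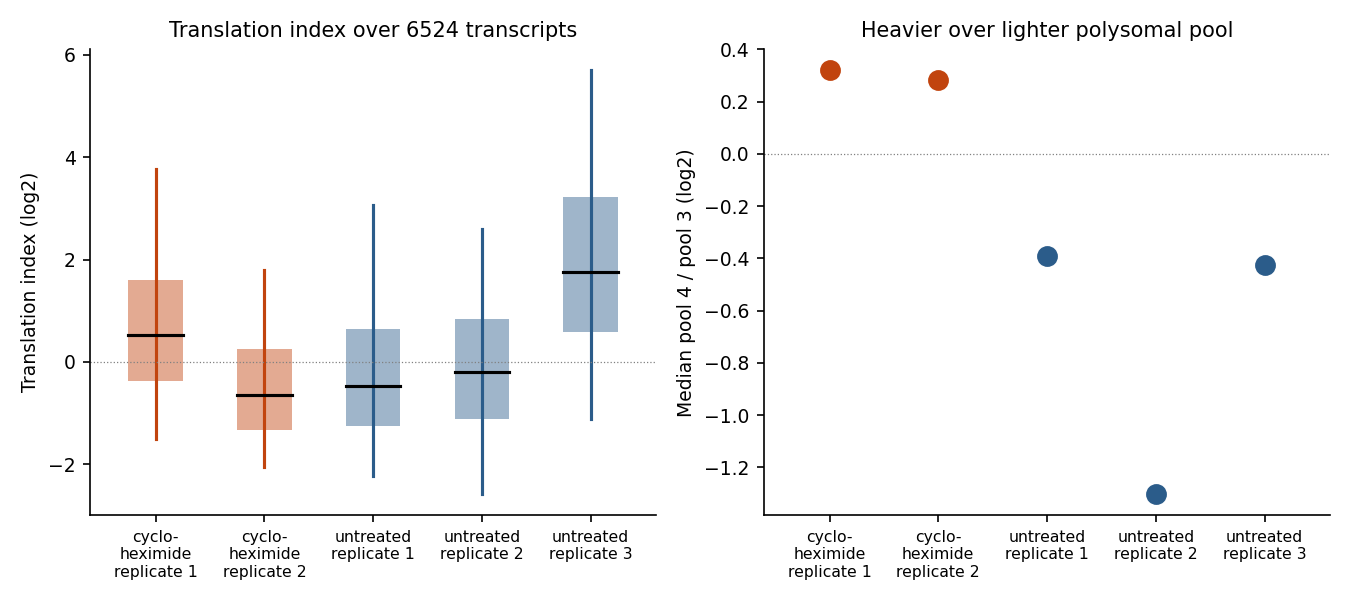
Left, the translation index (log2) over 6524 transcripts in each gradient, with the line at the median, the box from the 25th to the 75th percentile and the whisker from the 5th to the 95th. Right, the median ratio (log2) of pool 4 over pool 3 in each gradient, where both cycloheximide gradients (0.32 and 0.28) lie above the 3 untreated ones (-0.39, -1.30 and -0.43).

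To compare single transcripts, each gradient was centred on its own median TI. After centring, transcripts kept much of the same order in both groups. Spearman correlations of the TI were 0.79, 0.84 and 0.74 between cycloheximide replicate 1 and untreated replicates 1 to 3. For cycloheximide replicate 2 they were 0.50, 0.68 and 0.39, and the cycloheximide gradients correlated with each other at 0.69. Pairs of untreated gradients correlated at 0.69 to 0.75. The correlations of cycloheximide replicate 1 were thus within or above the range of untreated pairs, and those of cycloheximide replicate 2 below it. With puromycin gradients, made from the same lysates, the cycloheximide gradients correlated at -0.20 to 0.00.

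Set against the mean of the untreated gradients, cycloheximide replicate 1 had 80.7% of transcripts within 1 log2 unit and a median absolute difference of 0.49. In cycloheximide replicate 2 the share was 57.8% and the median absolute difference 0.83. Each untreated gradient, set against the mean of the other untreated ones, had between 61% and 70.8% within 1 unit. The values for cycloheximide replicate 1 are against a mean of 3 gradients and those for the untreated gradients against a mean of 2, so they are side by side and not a test.

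The ends of the order were shared. Of the 652 transcripts with the highest mean TI in the cycloheximide gradients, 385 (59%) were also among the 652 highest in the untreated gradients. Of the 652 lowest, 363 (55.7%) were shared, and no transcript was at opposite ends. By itself, cycloheximide replicate 1 shared 61.5% of the highest and 64.1% of the lowest, and cycloheximide replicate 2 shared 38.8% and 34.7%. When transcripts were ordered by their mean TI in untreated gradients and divided into 5 equal groups, the median centred TI in cycloheximide replicate 1 was -1.45, -0.63, 0.05, 0.82 and 2.00 from the lowest group to the highest. In cycloheximide replicate 2 it was -0.76, -0.41, 0.03, 0.52 and 1.07. Both followed the untreated order, and the span was narrower in replicate 2.

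Cycloheximide replicate 2, with the narrower span, also had the shortest low tail in pool 1. In pool 1, 505 transcripts (7.74%) of cycloheximide replicate 1 and 263 (4.03%) of replicate 2 lay more than 3 log2 units below the array's median. In the untreated gradients these were 958 (14.7%), 419 (6.42%) and 787 (12.1%). Tail and width did not go together throughout. Untreated replicate 1 had the longest tail, but its TI had an interquartile range of 1.91, below the 1.97 of cycloheximide replicate 1. Among the 652 transcripts with the highest TI of each gradient, 55.1% and 17.2% were in that low tail with cycloheximide, against 86.8%, 26.9% and 72.7% untreated. The index subtracts the pool 1 level, so high indices go with low pool 1 levels in part by construction. The share was smaller in cycloheximide replicate 2 and untreated replicate 2. The part of these low pool 1 levels in the differences between groups was not tested.

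**Figure D2:**
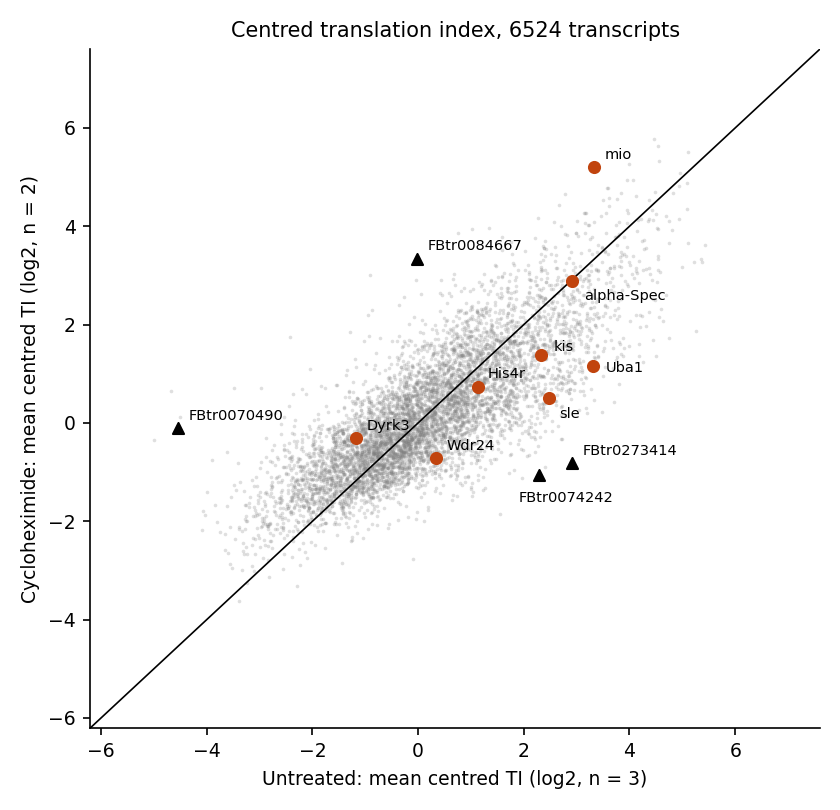
Mean centred translation index (log2) of 6524 transcripts in the cycloheximide gradients (vertical, n = 2) against the untreated gradients (horizontal, n = 3), with the line of equality. Circles are the 8 transcripts with a gene name and triangles are 4 transcripts printed by identifier. Most points lie along the line, and 74% are within 1 unit of it.

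No single transcript passed the threshold. Limma called 0 of 6524 transcripts (0% called) at an adjusted p under 0.05, and the smallest adjusted p was 0.742. Without adjustment, 181 transcripts (2.77%) had a higher TI with cycloheximide and 130 (1.99%) a lower one at p under 0.05. Significance Analysis of Microarrays, which the study's methods name, called 1 transcript (0.0153%), which was lower with cycloheximide. The method's false discovery rate used the median over 10 arrangements of the gradients, which controls a single call poorly. The cycloheximide and untreated values did not overlap in 982 transcripts that were higher (15.1%) and 668 that were lower (10.2%). The changes had a median of 0.03, with 5% of transcripts under -1.63 and 5% over 1.42. In all, 4828 transcripts (74%) had a change of less than 1 unit and 33 of more than 3.

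The width of the intervals set what could be seen. The median standard error of a change was 0.62 and the median half-width of its 95% interval was 1.49, so a change of 1 unit lay within the interval of a typical transcript. For 42.2% of transcripts the whole interval lay within 2 units of 0. For the others a change above 2 units was within their interval, and the missing calls do not show that the indices were alike. The spread between replicates depended on level. Among the 1631 transcripts of lowest mean level the median SD of the TI was 0.77 with cycloheximide and 0.97 untreated. Among the 1632 of highest mean level it was 0.29 with cycloheximide and 0.49 untreated.

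The transcripts at unadjusted p under 0.05 differed mostly at the top of the gradient. Those with a higher TI had a median change of -1.17 in the centred pool 1 level, 0.72 in pool 3 and 0.07 in pool 4. Those with a lower TI had a median change of 2.13 in pool 1, -0.50 in pool 3 and 0.16 in pool 4. Because these transcripts were picked by the TI, the values describe where their difference lies and are not a separate result. Fitted for each pool alone, levels gave 0 calls in limma (0% called) in each of the 4 pools. At unadjusted p under 0.05, 173 transcripts (2.65%) were higher and 106 (1.62%) lower with cycloheximide in pool 1, and 134 (2.05%) higher and 182 (2.79%) lower in pool 2. In pool 3 these were 233 (3.57%) and 286 (4.38%), and in pool 4 they were 40 (0.613%) and 180 (2.76%), so that pool 4 had the most uneven split.

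Of the 6524 rows, 8 could be given a gene name through the gene table of RefSeq assembly Release 6 plus ISO1 MT. Sets of related genes had been listed for the GATOR complex, ubiquitin-activating enzymes, chromatin remodellers and replication-independent histones, with 29 genes in all. Of these, 5 were measured under a name (2, 1, 1 and 1), 0 of the 5 passed the test, and the lists say nothing of the genes that were not named. Of the 8 named transcripts, 2 had a higher and 6 a lower mean TI with cycloheximide, with a median change of -0.66 beside 0.03 over all transcripts, and 0 passed the test. Groups did not overlap in 1 of the 8, against 25.3% of all transcripts.

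*mio* and *Wdr24* encode subunits of GATOR2, the complex that relieves inhibition of TORC1 when amino acids are present. *mio* is also needed in the *Drosophila* ovary for the oocyte to keep its identity. The centred TI of *mio* was 6.09 and 4.31 with cycloheximide, against 3.88, 1.37 and 4.75 untreated. It was among the highest of all transcripts in both groups, at the 99.9th percentile of the mean with cycloheximide and the 96.9th untreated, and the groups overlapped. The change was 1.87 ± 1.10 (SE), with a 95% interval of -0.79 to 4.53 and a limma adjusted p of 0.742. It was 0.89 without untreated replicate 2, 0.98 without cycloheximide replicate 1 and 2.76 without cycloheximide replicate 2. *mio* was scarce in pool 1, with a level relative to the array median of -5.89 and -4.08 (log2) with cycloheximide, against -4.34, -1.45 and -4.72 untreated.

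*Wdr24* had a lower and more even index. Its centred TI was -0.28 and -1.14 with cycloheximide, against -0.25, 0.17 and 1.11 untreated, and it was the named transcript whose groups did not overlap, though by a margin of 0.04 between -0.28 and -0.25. The change was -1.06 ± 0.61 (SE; 95% interval -2.53 to 0.42; limma adjusted p = 0.742). It was -0.63 without cycloheximide replicate 2, -0.68 without untreated replicate 3 and -1.49 without cycloheximide replicate 1. In pool 3 its centred level was 0.16 and 0.33 with cycloheximide, against 0.78, 2.04 and 0.91 untreated. These levels did not overlap (change -0.998 ± 0.47, SE; limma adjusted p = 0.601), as in 34.3% of all transcripts in pool 3.

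*Uba1* encodes the E1 enzyme that activates ubiquitin at the start of every ubiquitination cascade. Its centred TI was 2.55 and -0.24 with cycloheximide, against 2.80, 1.21 and 5.92 untreated. The values of the groups overlapped and were far apart within each group. The change was -2.16 ± 1.49 (SE; 95% interval -5.75 to 1.44; limma adjusted p = 0.742). Most of that spread was in pool 1, where the log2 level was 11.02 and 14.82 with cycloheximide, against 10.93, 13.06 and 7.24 untreated. Untreated replicate 3 was the low library, and pool 1 of cycloheximide replicate 2 the high one. The change was -0.85 without untreated replicate 3, -0.76 without cycloheximide replicate 2 and -3.55 without cycloheximide replicate 1.

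*sle*, slender lobes, encodes a nucleolar protein, and 1 library decided its value too. Its centred TI was 0.70 and 0.33 with cycloheximide, against 0.55, 0.80 and 6.09 untreated. Untreated replicate 3 was far above the other gradients, and its pool 1 level of 6.54 was below the 12.3 to 13.6 of the other gradients. The change was -1.96 ± 1.67 (SE; 95% interval -5.99 to 2.06; limma adjusted p = 0.764), and -0.16 without untreated replicate 3.

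*kis* encodes Kismet, a chromatin remodeller of the CHD family and a trithorax-group protein. Its centred TI was 0.65 and 2.13 with cycloheximide, against 2.35, 3.23 and 1.39 untreated. The groups overlapped (change -0.93 ± 0.75, SE; 95% interval -2.75 to 0.88; limma adjusted p = 0.75). Without cycloheximide replicate 1 the change was -0.20, without cycloheximide replicate 2 it was -1.67, and without untreated replicate 2 it was -0.48. *alpha-Spec* encodes alpha-spectrin of the membrane skeleton. Its centred TI was 4.91 and 0.85 with cycloheximide, against 3.39, 3.13 and 2.20 untreated. The cycloheximide values lay on either side of the untreated ones, and the change of -0.03 ± 1.18 (SE; 95% interval -2.87 to 2.82) changed sign when the gradients were scaled to a common interquartile range. It was 2.00 without cycloheximide replicate 2 and -2.06 without cycloheximide replicate 1.

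*His4r*, a histone H4 gene expressed outside S phase, and *Dyrk3*, a protein kinase of the DYRK family, had levels near the bottom of the table. Their mean levels were at percentile 0.0613 and percentile 1.06 of all transcripts. The histone H4 genes of the fly encode the same protein, and whether the probes separate them was not checked. The centred TI of *His4r* was 1.12 and 0.36 with cycloheximide, against 2.82, -0.04 and 0.61 untreated, and the groups overlapped (change -0.39 ± 0.91, SE; limma adjusted p = 0.909). This change was -0.0067 without cycloheximide replicate 2 and 0.46 without untreated replicate 1. The centred TI of *Dyrk3* was -1.11 and 0.50 with cycloheximide, against -0.91, -1.67 and -0.93 untreated, and these also overlapped (change 0.87 ± 0.65, SE; limma adjusted p = 0.742). Nearly all of that change came with cycloheximide replicate 2, since it was 0.065 without that gradient and 1.67 without cycloheximide replicate 1.

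**Figure D3:**
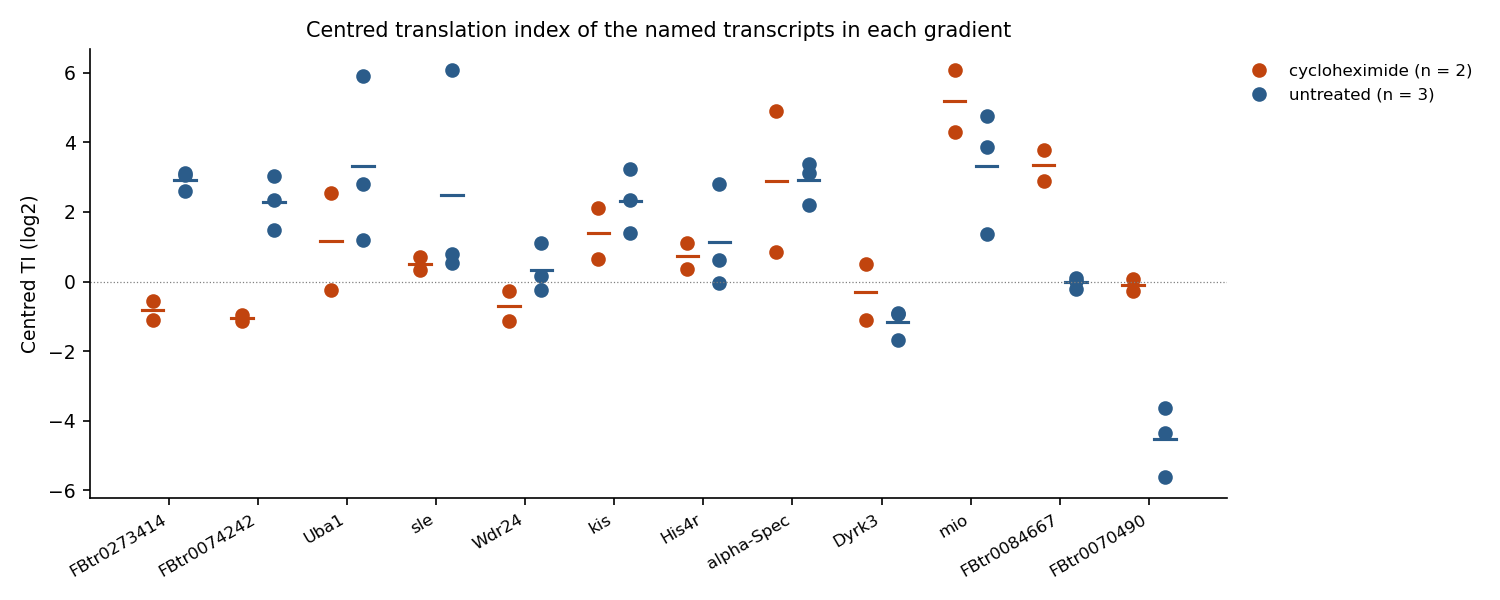
Centred translation index (log2) of 12 named transcripts, with 1 point per gradient and a bar at each group's mean, in order of the change. Points of the groups overlap for 7 of the 8 gene names, while the 4 transcripts given by identifier, chosen for their small p-values, are apart by construction.

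The transcripts with the smallest p-values among those whose groups did not overlap are given by identifier, because the gene table did not name them. They were chosen by this contrast, so their changes are a description. FBtr0070490 had a centred TI of 0.07 and -0.26 with cycloheximide, against -4.34, -3.64 and -5.62 untreated. The change in its TI was 4.435 ± 0.686 (SE; limma adjusted p = 0.742). The largest part was in pool 1, where its log2 level was 6.87 and 8.29 with cycloheximide, against 13.00, 12.18 and 12.27 untreated. Its polysomal levels were low in both groups, between 7.07 and 7.83 with cycloheximide and between 8.05 and 8.71 untreated. With cycloheximide its pool 1 levels were similarly low, and its mean level was at percentile 0.889 of all transcripts. In wild-type gradients the centred TI of this transcript was -0.85, 3.21 and 2.46, so the untreated *smaug*-mutant gradients were the lowest of these 3 sets.

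FBtr0084667 had a centred TI of 3.80 and 2.88 with cycloheximide, against -0.21, 0.12 and 0.02 untreated. The change was 3.36 ± 0.51 (SE), with a limma adjusted p of 0.742. In the puromycin gradients, made from the same lysates, its centred TI was 3.52 and 3.74, close to the centred cycloheximide values. Centring takes out the gradient's median TI, which was -3.06 and -3.12 with puromycin, against 0.52 and -0.64 with cycloheximide. The likeness is thus of its place among transcripts and not of its ratio of polysomal to free mRNA. In wild-type gradients its centred TI was -0.67, 2.85 and 3.58. Wild-type replicate 1 was near the untreated values and the other wild-type gradients near the cycloheximide values. Its mean level was at percentile 1.47 of all transcripts.

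FBtr0273414 was the transcript called by Significance Analysis of Microarrays. Its centred TI was -0.54 and -1.10 with cycloheximide, against 2.59, 3.06 and 3.11 untreated, a change of -3.74 ± 0.49 (SE; limma adjusted p = 0.742). Here too pool 1 held most of the difference, with log2 levels of 10.74 and 12.45 with cycloheximide, against 7.50, 7.26 and 6.18 untreated. In wild-type gradients its centred TI was spread widely, at 2.13, 6.49 and -0.03, and in puromycin gradients it was -0.67 and -2.21. In untreated replicate 2 its log2 level was 8.46 in pool 3 and 11.79 in pool 4. Its mean level was at percentile 6.3 of all transcripts. FBtr0074242 had a centred TI of -1.15 and -0.96 with cycloheximide, against 2.35, 1.48 and 3.04 untreated. Untreated replicate 2 differed from the other gradients in the level of FBtr0074242, with 12.72 to 14.19 over the 4 pools, against 10.37 to 12.84 in the cycloheximide gradients and 6.25 to 11.33 in the other untreated ones. The change in its TI was -3.35 ± 0.60 (SE; limma adjusted p = 0.742). In wild-type gradients its centred TI was 2.133, -0.355 and -1.708, and in puromycin gradients -0.3561 and -0.5405.

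**Figure D4:**
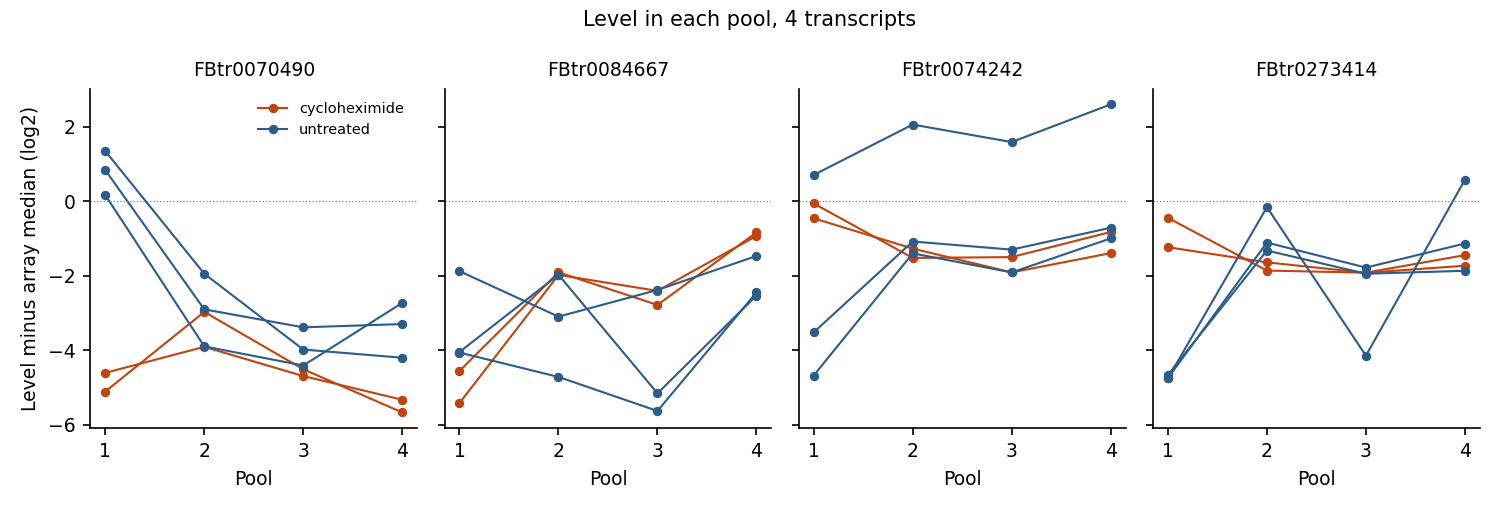
Level minus the array's median (log2) in pools 1 to 4 for 4 transcripts given by identifier, with 1 line per gradient, cycloheximide (n = 2) and untreated (n = 3). For FBtr0070490 and FBtr0273414 the cycloheximide and untreated lines part in pool 1, in opposite directions.

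The index averages pools 3 and 4, so it does not show how mRNA was divided between them. The ratio of pool 4 to pool 3, the deeper over the lighter polysomes, had a higher median in both cycloheximide gradients than in the 3 untreated ones. Its median over transcripts was 0.32 and 0.28 (log2) with cycloheximide, against -0.39, -1.30 and -0.43 untreated. The groups did not overlap, with means of 0.30 ± 0.02 (SD, n = 2) and -0.71 ± 0.52 (SD, n = 3). The difference of 1.01 had an exact two-sided permutation p of 0.20, the smallest that 2 gradients against 3 can give, and an adjusted p of 0.90 over the 9 gradient-wide comparisons made. It was 0.71 within the Cy5 gradients, 1.15 within the Cy3 gradients and 0.71 without untreated replicate 2. In the wild-type gradients the median ratio was 0.07, 0.84 and -0.02, on either side of the cycloheximide values. Of these pools, pool 4 had array medians of 12.74 and 12.57 with cycloheximide, against 11.35, 11.22 and 12.33 untreated, also without overlap. Pool 3 medians were 12.34 and 12.22 with cycloheximide, against 11.72, 12.61 and 12.70 untreated, and they overlapped. Levels are scaled by RNA added to each pool, so an error of that scaling in pool 4 would enter these medians, and was not tested.

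After centring on this shift, the ratio was compared for single transcripts. With all gradients limma called 0 transcripts (0% called), with a smallest adjusted p of 0.535, and 289 (4.43%) were higher and 181 (2.77%) lower at unadjusted p under 0.05. The groups did not overlap in 1408 transcripts that were higher (21.6%) and 1296 that were lower (19.9%). Across transcripts, the centred ratio of untreated replicate 2 had Spearman correlations of 0.04 and 0.00 with the cycloheximide gradients and 0.47 and 0.21 with untreated replicates 1 and 3. The cycloheximide gradients correlated at 0.84 with each other, at 0.53 and 0.52 with untreated replicate 1 and at 0.69 and 0.72 with untreated replicate 3. With the wild-type gradients they correlated at 0.58 to 0.80. Without untreated replicate 2, limma called 198 transcripts (3.03%), of which 144 (2.21%) were higher with cycloheximide and 54 (0.828%) lower. That fit set the cycloheximide gradients against untreated replicates 1 and 3 alone. The gradient left out had stood apart by this same ratio, so its removal can lower the spread that the test uses. The 198 calls are therefore a description and not a separate result. The median change was 1.18 in the 144 and -1.21 in the 54. All of the 198 had the same sign of change with all gradients, which share 4 of their 5 gradients with this comparison.

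*Uba1* and *kis* were among the 144. The centred ratio of *Uba1* was 2.14 and 1.81 with cycloheximide, against 0.31, -0.07 and 0.85 untreated. Both cycloheximide gradients were above the 3 untreated ones, with a change of 1.62 ± 0.39 (SE; 95% interval 0.67 to 2.56; limma adjusted p = 0.535). Without untreated replicate 2 the change was 1.40 ± 0.28 (SE; limma adjusted p = 0.0156). The centred ratio of *kis* was 1.84 and 1.80 with cycloheximide, against 0.31, -0.91 and 0.70 untreated. These groups did not overlap, with a change of 1.79 ± 0.52 (SE; limma adjusted p = 0.535), and of 1.32 ± 0.26 (SE; limma adjusted p = 0.0173) without untreated replicate 2. For both genes the ratio was higher with cycloheximide also after scaling to a common interquartile range. Without centring it was higher by construction, because the gradient-wide difference of 1.01 is then added to every change.

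The levels behind these ratios differed in pool 3. The centred pool 3 level of *kis* was -0.32 and -0.43 with cycloheximide, against 1.29, 1.47 and 0.54 untreated. That of *Uba1* was 0.51 and 0.67 with cycloheximide, against 1.58, 2.15 and 2.01 untreated. In pool 4 the centred levels of *kis* were 1.44 and 1.31 with cycloheximide, against 1.59, 0.64 and 1.18 untreated. Those of *Uba1* in pool 4 were 2.57 and 2.42 with cycloheximide, against 1.88, 2.17 and 2.81 untreated. Relative to the other transcripts, both mRNAs were thus lower in pool 3 without overlap, as 34.3% of all transcripts did not overlap there in either direction, and both overlapped between the groups in pool 4. The pool 3 changes were -1.47 ± 0.41 (SE) for *kis* and -1.33 ± 0.36 (SE) for *Uba1*, each with a limma adjusted p of 0.601. *sle* was also lower in pool 3 without overlap (change -1.30 ± 0.36, SE; limma adjusted p = 0.601), as was *Wdr24*.

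Among the other named transcripts, *sle* had a centred ratio of 1.28 and 0.61 with cycloheximide, against 0.03, -0.51 and -0.12 untreated. The groups did not overlap, and its change without untreated replicate 2 was 0.99 with a limma adjusted p of 0.0647. *mio* had 0.06 and -0.25 with cycloheximide, against -0.70, -1.22 and -0.38 untreated, again without overlap (change 0.67). *Dyrk3* was the named transcript that was lower without overlap, with -0.03 and 0.42 with cycloheximide, against 0.51, 2.59 and 0.72 untreated. Its change of -1.08 came close to 0 without centring (-0.07). The ratios of *alpha-Spec*, *Wdr24* and *His4r* overlapped between the groups. In all, 4 of the 8 named transcripts were higher and 1 was lower without overlap, against 41.4% of all transcripts in either direction. Of the 8, 0 passed the test with all gradients, and 2 passed without untreated replicate 2, against 3.03% of all transcripts in that fit. Of the 5 gradients, untreated replicate 2 was the 1 whose removal gave any calls.

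**Figure D5:**
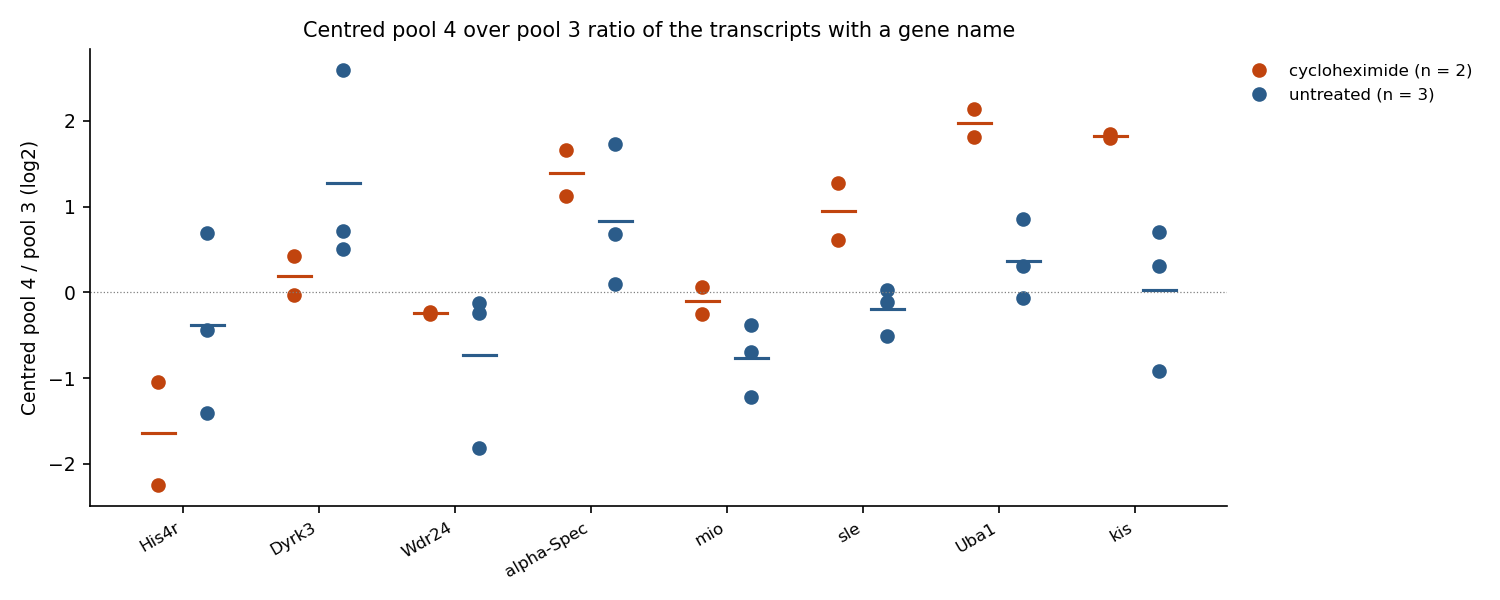
Centred log2 ratio of pool 4 to pool 3 for the 8 transcripts with a gene name, with 1 point per gradient and a bar at each group's mean. For *Uba1*, *kis*, *sle* and *mio* both cycloheximide points lie above the 3 untreated points, and for *Dyrk3* below them.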

How the data were processed

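The values are log2 levels deposited by the authors, 1 per transcript and array. The authors normalised custom NimbleGen arrays by the quantile step of RMA, then transformed each array linearly on RNA of another species added in a fixed amount to every pool. The log base was taken as 2 because RMA gives log2 values. A spike-in error therefore moves a whole array. All 6524 rows were kept, including 2 values under 4 in the arrays of both groups. TI values and log2 ratios of pool 4 to pool 3 were centred on each gradient's median, levels on each array's. They were compared with limma 3.58.1 (lmFit and eBayes, 1 value per gradient, no covariate) in R 4.3.3, with Benjamini-Hochberg adjustment over all rows and a threshold of 0.05. Gradient-wide values had exact two-sided permutation tests. Significance Analysis of Microarrays was rewritten from its definition (false discovery rate under 5%). The scripts were tested on simulated data. Alternatives were no centring, scaling to a common interquartile range, pool 3 or 4 alone, an arithmetic mean, leaving out the 25% of rows with the lowest levels, all 10 gradients, dye as a covariate, quantile normalisation within pools, limma's trend and robust options, SD in place of interquartile range, a replicate block and leaving out each gradient. Named rows were every row with 1 gene symbol, and the 2 highest and 2 lowest transcripts by unadjusted p among rows whose groups did not overlap. The comparison, the lists and the rule were chosen with earlier results of these data known. Replicates are biological replicates by the study's own account, and their numbers did not pair the groups.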

Additional observations from a re-analysis of the deposited data

How the results depend on the processing

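No transcript passed the limma threshold for the TI under any limma alternative run, and Significance Analysis of Microarrays called 1. Without centring, the median change over transcripts was -0.40 in place of 0.03, and 17 transcripts were higher and 99 lower at unadjusted p under 0.05, beside 181 and 130 with centring. For the pool 4 to pool 3 ratio these were 1872 and 3 without centring, beside 289 and 181. The difference in median TI was 0.079 with pool 4 alone and ran from -1.01 to 0.27 when 1 gradient was left out. Counts for the pool 4 to pool 3 ratio ran from 0 to 198 when 1 gradient was left out, the highest without untreated replicate 2. For levels they ran from 0 to 1 in pools 3 and 4, with 1 in each without cycloheximide replicate 1. Without centring 10 transcripts passed in pool 3 and 3 in pool 4. The change of *alpha-Spec* was 0.11 after scaling to a common interquartile range, 0.25 with pool 4 alone, 0.19 with the arithmetic mean and from -2.06 to 2.00 when 1 gradient was left out. That of *His4r* was 0.28 with pool 3 alone and from -0.97 to 0.46 when 1 gradient was left out. The cause of these changes was not tested. Dye as a covariate, quantile normalisation within pools and limma's trend and robust options changed no direction and no call where they were run. Of 184 alternatives for single transcripts, 176 kept the direction and 0 passed the threshold. The reversals were in *alpha-Spec* (6) and *His4r* (2). The transcripts given by identifier had 0 reversals, but they were picked by this contrast, so their direction could hardly change.

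Replicate numbers 1 and 2 are shared by the groups. Deviations of same-numbered gradients from their group means correlated at -0.03 and 0.32. The deviations of the 2 cycloheximide gradients mirror each other, so these values cannot decide on pairing. Because the groups were lysed in different buffers, same-numbered gradients were taken to share a number and not a lysate. The numbers also follow the dye, and untreated replicate 3 adds nothing under the block. With the replicate number as a block, 0 of 6524 transcripts passed for the TI and for pools 1 and 2. For the pool 4 to pool 3 ratio 167 passed (72 higher, 95 lower), with 16 for pool 3 and 44 for pool 4. That fit rests on 2 differences between same-numbered gradients, with 1 residual degree of freedom, so its counts are not firm. Of the 167, 48 (28.7%) were among the 198 called without untreated replicate 2, of which they are 24.2%.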
